A study of Rattus norvegicus with 6 samples.

Results

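Plin2, Fabp4, Fabp5, Scd and Crabp2 are genes whose proteins store, carry or desaturate lipids, and they were followed here across rat fibroblasts treated or not treated with a demethylating drug. They were chosen by symbol, as every probe set that listed exactly 1 gene and carried one of these names. All 5 genes were found, on 7 of the 4818 probe sets tested: Plin2 and Scd had 2 probe sets each, and the others had 1. A further probe set that listed Scd together with other desaturase genes was left out. The genes were picked with their differences in these arrays known, so their values are given as a description and without p values.

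The cells were 208F, an immortal and non-transformed rat fibroblast line, and FE8, a line of rat fibroblasts transformed by the HRAS oncogene. The groups were untreated 208F (1 array), 208F exposed to 0.3 µM 5-aza-2'-deoxycytidine over 96 h (2 arrays), untreated FE8 (1 array) and FE8 exposed to the same dose for the same time (2 arrays). The drug is a cytidine analogue that is built into DNA and traps DNA methyltransferases, so that methylation of CpG sites is lost as cells divide. Each cell type was represented by 1 line, so a difference between lines cannot be told apart from any other difference between 208F and FE8, and the labels do not state whether treated replicates came from separate cultures.

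Lipid droplets are stores of neutral lipid that cells form when fatty acids exceed their needs, and perilipins such as Plin2 coat their surface and limit access of lipases. The small cytosolic proteins Fabp4, Fabp5 and Crabp2 belong to the same family of lipid chaperones: Fabp4, best known from adipocytes and macrophages, and Fabp5, best known from epidermis, bind long-chain fatty acids, while Crabp2 binds retinoic acid and passes it to nuclear retinoic acid receptors. Scd, stearoyl-CoA desaturase, makes monounsaturated from saturated fatty acids in the endoplasmic reticulum. Plin2 and Fabp4 are known targets of PPAR nuclear receptors, and Scd and the fatty acid synthase Fasn are known targets of the sterol-regulated factor SREBP.

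The arrays were similar in median signal (354 to 422). Both untreated arrays were run on the same day on chips of the same lot, and the treated arrays on other days on other lots. The drug effect and the day of the run therefore cannot be told apart. Among the treated arrays, replicate 1 of 208F had a lot and day of its own. Replicate 2 of 208F shared its lot and day with both FE8 arrays. The 208F duplicates thus differed in lot and day, and the FE8 duplicates did not. The line difference under the drug is therefore partly confounded with lot and day. The 5' to 3' signal ratio of beta-actin, a sign of RNA quality, was 0.824 on untreated 208F and 0.351 to 0.529 on the others, and that of GAPDH was 0.916 and 0.691 on the untreated arrays and 1.010 to 1.132 on the treated ones. Of 15 fibroblast markers 10 were measured, and 9 of them exceeded a signal of 64 on every array, although the collagen Col1a1 stood at 131, 271 and 100 on the FE8 arrays against 6922 to 22282 on those of 208F. Markers of other cell types that express lipid chaperones were few. Of 12 adipocyte markers, 3 besides Fabp4 were measured (Lep, Cfd and Lpl), with summed signals of 2759 for 208F without the drug and 3073 and 2861 with it, and 2516 for FE8 without the drug and 2937 and 1988 with it. Lep made up most of each sum, at 1601 to 2832, and Lpl stood at 47 to 87. Only Cd14 of 10 macrophage markers was measured, at 160 to 446. The 3 measured of 11 endothelial markers summed to 476 for 208F without the drug and 447 and 259 with it. In FE8 they summed to 289 without the drug and 836 and 691 with it. The summed epithelial markers rose with the drug: the 5 measured of 10 summed to 322 and 295 on the untreated 208F and FE8 arrays, to 4365 and 3752 in treated 208F and to 5135 and 5362 in treated FE8, and none was at 0. Most of the treated sums was Krt8, at 3250 and 2825 in 208F and 3838 and 4077 in FE8. Muc1 gave 149 in untreated 208F and 201 and 129 in treated 208F. The part of these markers in the results below was not tested.

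Because the drug acts on CpG sites, the promoters available for these genes are shown with each CpG in capitals. Whether these sites have a part in the differences below was not tested. The reference table of RefSeq promoters (rat build GRCr8) held 4 windows of 250 bases upstream of a start site for 3 of the 5 genes: Plin2 at chr5:106229019-106229268 (start 1, minus strand) and chr5:106228538-106228787 (start 2, minus strand), Scd at chr1:253231732-253231981 (minus strand) and Crabp2 at chr2:175714612-175714861 (plus strand). The letters read 5' to 3' on the strand of the gene.
Plin2 start 1: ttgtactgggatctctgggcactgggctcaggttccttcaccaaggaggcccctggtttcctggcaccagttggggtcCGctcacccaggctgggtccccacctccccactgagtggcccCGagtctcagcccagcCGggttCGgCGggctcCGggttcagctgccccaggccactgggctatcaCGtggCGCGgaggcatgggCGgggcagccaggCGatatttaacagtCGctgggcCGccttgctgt
Plin2 start 2: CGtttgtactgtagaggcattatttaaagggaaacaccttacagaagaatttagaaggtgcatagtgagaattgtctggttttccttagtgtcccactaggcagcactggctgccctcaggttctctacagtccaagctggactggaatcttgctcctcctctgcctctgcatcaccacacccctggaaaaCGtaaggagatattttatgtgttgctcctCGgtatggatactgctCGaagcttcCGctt
Crabp2: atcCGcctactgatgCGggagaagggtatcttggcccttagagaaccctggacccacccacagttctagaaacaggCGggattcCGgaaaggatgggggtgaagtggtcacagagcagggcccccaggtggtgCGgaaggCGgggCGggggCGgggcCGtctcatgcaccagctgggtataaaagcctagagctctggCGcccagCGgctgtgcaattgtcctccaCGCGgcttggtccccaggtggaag
Scd: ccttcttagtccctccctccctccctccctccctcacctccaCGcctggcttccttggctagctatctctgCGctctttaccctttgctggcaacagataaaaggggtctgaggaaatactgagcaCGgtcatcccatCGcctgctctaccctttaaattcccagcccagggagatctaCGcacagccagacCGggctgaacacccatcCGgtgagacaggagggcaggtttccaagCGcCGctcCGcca

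Start 1 of Plin2 and the Crabp2 window each held 13 CpG, the Scd window 10 and start 2 of Plin2 5, against a median of 5 over 33465 windows of the same table. As many or more CpG were found in 29.4% of all windows for the counts of Plin2 start 1 and Crabp2, in 35.9% for Scd and in 55.3% for Plin2 start 2. Known promoter motifs were then searched by letters on both strands. Start 1 of Plin2 held the E-box CACGTG, which begins 67 bases before the start and includes 1 of the capital CpG, and 5.6% of all windows held this motif. The Crabp2 window held a TATA box, TATAAA, beginning 73 bases before the start (12.9% of all windows) and 2 GC boxes, GGGCGG, which overlap CpG (30.5%), while start 1 of Plin2 held 1 GC box. The CCAAT box, CCAAT, and the nuclear receptor half-site AGGTCA were in none of the 4 windows, against 34.0% and 14.1% of all windows. These are matches of letters, and methylation of these windows was not analysed here.

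**Figure D1:**
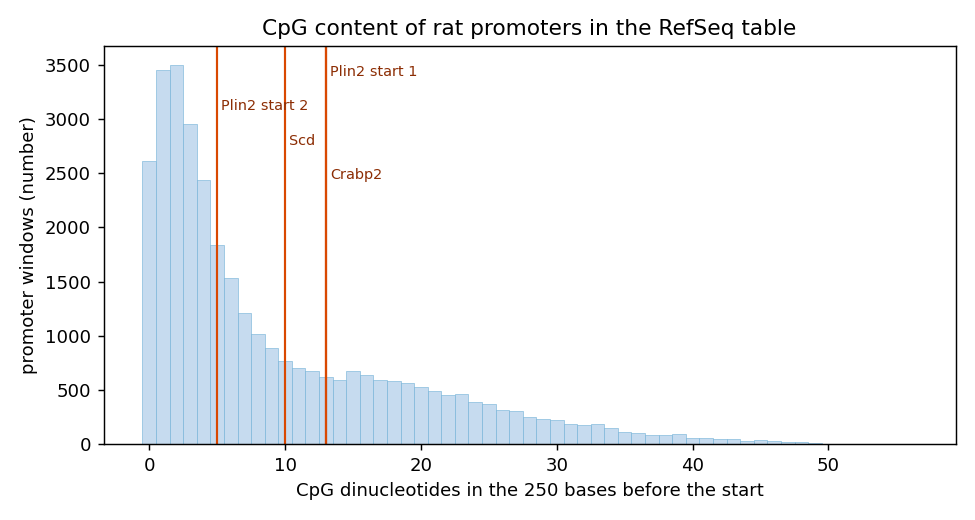
Histogram of the number of CpG dinucleotides (x axis) in the 250 bases upstream of each of 33465 rat start sites (y axis, number of windows), with vertical lines at the windows of Plin2, Scd and Crabp2. Plin2 start 1 and Crabp2 share the line at 13 CpG, to the right of the median of 5, where the line of Plin2 start 2 lies.

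Plin2 was higher on the treated arrays in both lines. Its brighter probe set, rc_AA893280_at, gave a signal of 96 for 208F without the drug and 1568 and 1551 with it, and 38 for FE8 without the drug and 6483 and 6738 with it. All treated arrays were far above both untreated ones, and within each line the treated duplicates differed little. On the log2(signal + 64) scale used for every difference here, the drug effect was 3.34 ± 0.27 (standard error) in 208F and 6.03 ± 0.27 in FE8. The larger effect in FE8 came with a higher treated level, FE8 minus 208F being 2.04 ± 0.22 under the drug. Without the drug, FE8 minus 208F was -0.65 ± 0.32, which did not pass the threshold used for calls. That value rests on 1 array a line, and the signal of untreated FE8 was below 64. The effect in FE8 exceeded that in 208F by 2.69 ± 0.39.

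The other probe set of Plin2, rc_AA874941_at, was dim on all arrays, with 26 for 208F without the drug and 41 and 45 with it, and 22 for FE8 without the drug and 116 and 149 with it. Both treated FE8 arrays were the highest of the 6 and each treated array lay above the untreated array of its line. The order of the groups was therefore the same as for the brighter probe set, but the sizes were not: the drug effect was 0.25 ± 0.39 in 208F and 1.19 ± 0.39 in FE8, and neither passed the threshold used for calls. In 208F the value was -0.04 after quantile normalization, so this probe set gave no settled direction there.

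**Figure D2:**
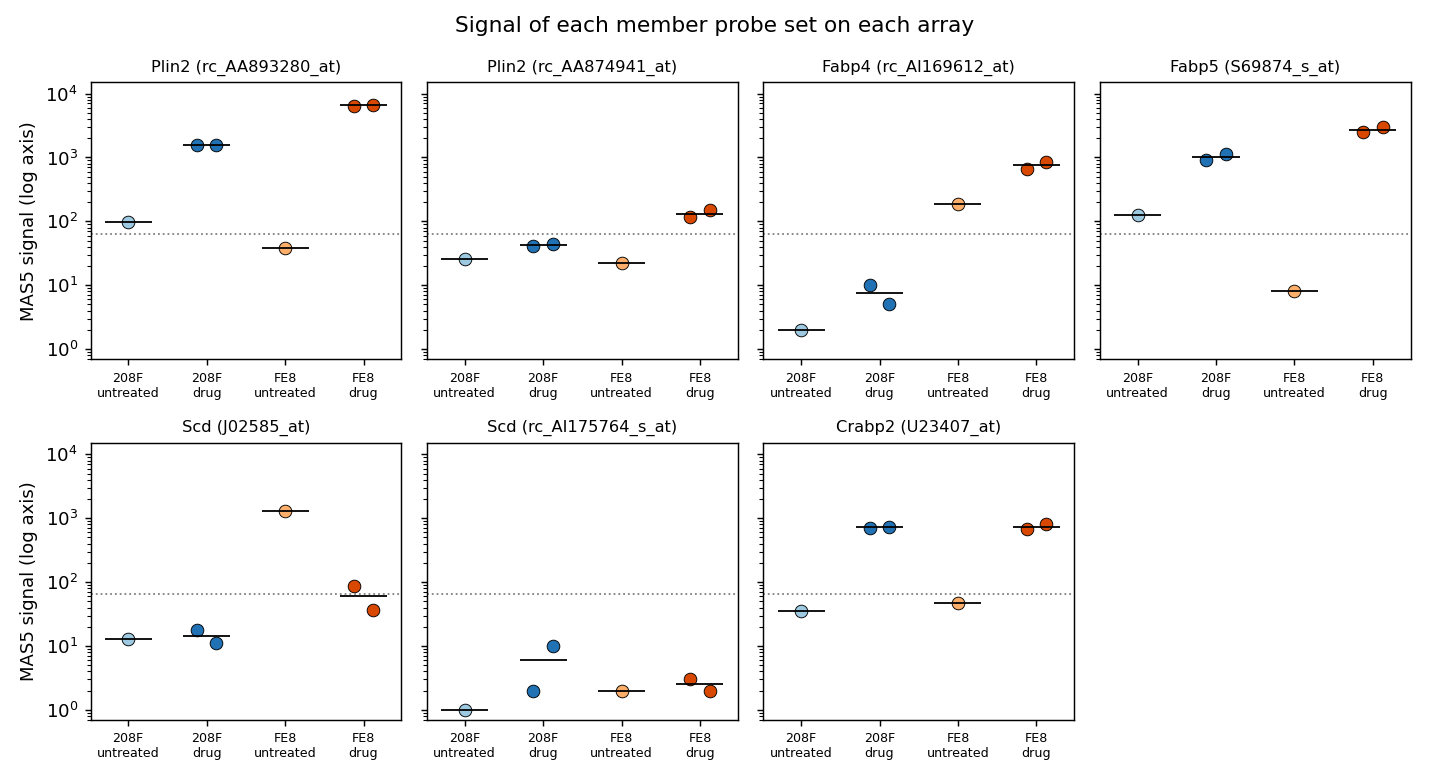
MAS5 signal (log y axis) of each of the 7 probe sets on each of the 6 arrays by group, with 1 point an array, short lines at group means and a dotted line at 64, the value added before taking log2. Plin2 (rc_AA893280_at), Fabp5 and Crabp2 rise from 125 or less to 673 or more in both lines, Fabp4 is high in FE8 whatever the treatment, and Scd (J02585_at) is high on the untreated FE8 array alone, at 1300.

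The fatty acid carriers Fabp4 and Fabp5 are near neighbours on rat chromosome 2, with 2 protein-coding genes between them (Fabp9 and Pmp2), yet they differed in pattern. Fabp5 (S69874_s_at, the only probe set of the gene and of a type that may be shared between transcripts) gave 125 for 208F without the drug and 928 and 1142 with it, and 8 for FE8 without the drug and 2493 and 2977 with it. Both lines were far higher with the drug, and their order changed with it: untreated FE8 was the lowest array and the treated FE8 arrays were the highest. The drug effect was 2.53 ± 0.31 in 208F and 5.28 ± 0.31 in FE8, and the difference between these effects was 2.74 ± 0.44. The effect in FE8 and the line difference without the drug (-1.39 ± 0.36) both rest on the untreated FE8 array with its signal of 8. Under the drug, FE8 minus 208F was 1.35 ± 0.25.

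Fabp4 (rc_AI169612_at) gave 2 for 208F without the drug and 10 and 5 with it, and 188 for FE8 without the drug and 662 and 841 with it. Every FE8 array lay above every 208F array, and the 208F signals were so low that no order among them can be read. FE8 minus 208F was 1.93 ± 0.45 without the drug and 3.50 ± 0.32 under it. The drug effect in FE8 was 1.69 ± 0.39, against 0.11 ± 0.39 in 208F. For Fabp4 the line thus separated all arrays, whereas for Fabp5 the treatment did.

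Scd moved the other way under the drug in FE8. Its probe set J02585_at gave 13 for 208F without the drug and 18 and 11 with it, and 1300 for FE8 without the drug and 87 and 36 with it. Untreated FE8 was the only array with a high signal, and the treated FE8 arrays, though higher than all 208F arrays, were close to them. The line difference was 4.15 ± 0.48 without the drug and 0.65 ± 0.34 under it, and the drug effect was -3.47 ± 0.41 in FE8 and 0.03 ± 0.41 in 208F. Both large values share the untreated FE8 array. All 208F signals of this probe set were far below 64, so a fall with the drug could not have been seen there. The second probe set, rc_AI175764_s_at, gave signals of 1, 2, 10, 2, 3 and 2 on the arrays in the same order, and its largest difference in any comparison was 0.10 ± 0.38. Signals of this size are far below 64 on all arrays, so it neither repeats nor contradicts the pattern of J02585_at. The probe set left out, AF036761_g_at, listed 4 genes, so its signal cannot be assigned to Scd alone. It gave 339 for 208F without the drug and 43 and 33 with it. In FE8 it gave 170 without the drug and 70 and 86 with it. Unlike J02585_at, it was highest on untreated 208F.

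Crabp2 (U23407_at) gave 35 for 208F without the drug and 700 and 739 with it, and 47 for FE8 without the drug and 673 and 809 with it. Treated arrays were all far above untreated ones, and the lines overlapped with the drug. The drug effect was 2.98 ± 0.34 in 208F and 2.85 ± 0.34 in FE8, with a difference between these effects of -0.13 ± 0.48. FE8 minus 208F was 0.17 ± 0.40 without the drug and 0.03 ± 0.28 under it. Crabp2 was thus the member with like effects in both lines as measured, with a standard error of 0.48 on the difference between them.

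**Figure D3:**
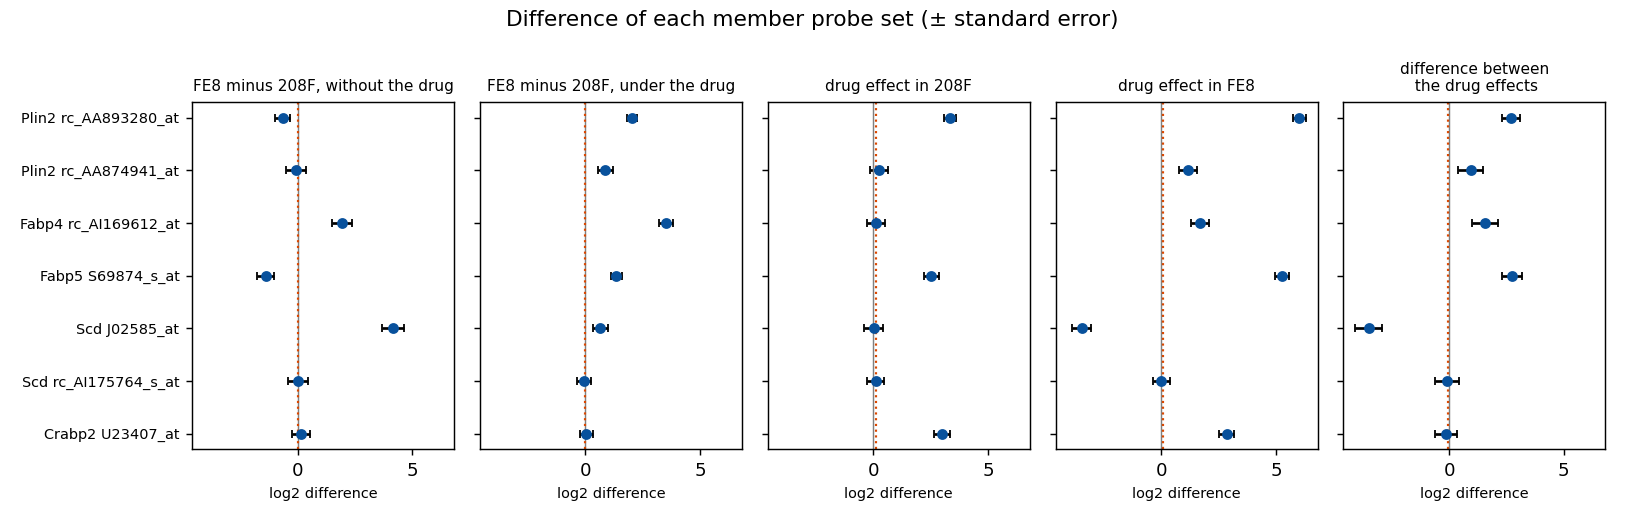
Log2 difference (x axis) of each of the 7 probe sets (rows) in 5 comparisons (panels), with points at the estimate, bars of ± 1 standard error, a grey line at 0 and a dotted line at the median of all 4818 probe sets. Plin2 (rc_AA893280_at), Fabp5 and Crabp2 lie between 2.53 and 6.03 in both drug panels, Fabp4 lies to the right in both line panels, and Scd (J02585_at) turns from 4.15 in the untreated line panel to -3.47 in the FE8 drug panel.

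The counts over the 7 probe sets can be read beside the share of all probe sets that passed the same threshold, a limma adjusted p under 0.05. In the FE8 drug effect 4 were higher (Plin2, Fabp4, Fabp5 and Crabp2, background 5.06%) and 1 was lower (Scd, 3.09%). In the 208F drug effect 3 were higher (Plin2, Fabp5 and Crabp2, background 3.59%) and none was lower (1.6%). Without the drug, 2 were higher in FE8 (Fabp4 and Scd, 3.09%) and 1 was lower (Fabp5, 2.82%), and under the drug 3 were higher (Plin2, Fabp4 and Fabp5, 3.42%) and none was lower (3.65%). Of 4818 probe sets 3 passed for the difference between the drug effects (0.0623%, or 0.0208% higher and 0.0415% lower in FE8), and rc_AA893280_at of Plin2 was the only member among them. The genes were selected on these differences, so nothing is read from the counts. The median over the 7 probe sets was 1.69 in the FE8 drug effect and 0.25 in that of 208F, against 0.08 and 0.11 over all probe sets, and 0.02 without and 0.87 with the drug between lines, against 0.02 and 0.00.

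2 limits apply to these values. The number added before the log decides much of the size where signals are low. With 16 or with 4 times 64 in place of 64, the drug effect on Plin2 (rc_AA893280_at) moved to 6.94 and 4.55 in FE8. In 208F it moved to 3.81 and 2.37. Fabp5 in FE8 moved to 6.84 and 3.50, and the Crabp2 effect in 208F to 3.85 and 1.74. Scd in untreated FE8 against 208F moved to 5.50 and 2.53, and Fabp4 in the same comparison to 3.50 and 0.78. Without either treated FE8 array, Fabp4 no longer passed in the FE8 drug effect and in the untreated line comparison, nor Fabp5 in the line comparisons, nor Plin2 in the difference between drug effects. Without either treated 208F array, Fabp5 and Scd (J02585_at) joined Plin2 in that difference. The Fabp5 call between untreated lines was lost in 6 of 11 settings, the Fabp4 call there was also lost with 4 times 64 added, and the Fabp4 call in the FE8 drug effect was also lost with 16 added.

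The lines and treatments were next compared over other genes of lipid and retinoid handling, in 5 lists of 119 genes, of which 42 were measured and each was represented by its brightest probe set. In the FE8 drug effect 3 were higher and 3 were lower, and in the 208F drug effect 4 were higher and none was lower, or 14.3% and 9.52% of 42 against 8.16% and 5.19% of all probe sets. The lists were chosen with earlier results of these data known. Shares and p values of their genes are therefore a description, and no excess over all probe sets is read from them. The median over the 42 genes was 0.02 in FE8 and 0.21 in 208F, against 0.08 and 0.11 over all probe sets. In line comparisons 3 were higher in FE8 and 1 was lower without the drug, and 4 were higher and 2 lower under it, against 5.92% and 7.08% of all probe sets in either direction. None of the 42 passed for the difference between the drug effects by limma, with 9 at an unadjusted p under 0.05. These counts depended on the treated arrays: without FE8 replicate 1 or 2 none of the 42 passed in the FE8 drug effect by limma (9 and 7 at an unadjusted p under 0.05) and 1 passed in 208F, while without a 208F replicate 4 were higher and 5 lower in FE8.

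Of 8 lipid droplet and triglyceride genes, 1 rose in FE8 under the drug, 7 did not pass, and none of 8 passed in 208F, where also none had an unadjusted p under 0.05 by limma. The gene that rose was G0s2, an inhibitor of the triglyceride lipase Pnpla2, with 29 for 208F without the drug and 20 and 8 with it, and 19 for FE8 without the drug and 272 and 328 with it. Only the treated FE8 arrays were above 64, and the drug effect there was 2.13 ± 0.39 (limma adjusted p = 0.0069), a call that was lost without either treated FE8 array (highest adjusted p = 0.077 over the settings tried). Between treated lines G0s2 was higher in FE8 by 2.22 ± 0.32 (limma adjusted p = 0.0011). The fatty acyl-CoA synthetases Acsl4 and Acsl5, which activate fatty acids, were higher in FE8 without the drug by 2.18 ± 0.50 and 1.32 ± 0.31 (limma adjusted p = 0.026 for both) and under it by 1.50 ± 0.35 and 1.22 ± 0.22 (limma adjusted p = 0.027 and 0.0047). All 4 calls of these synthetases were lost without either treated FE8 array, and those without the drug also under quantile normalization and without an intensity trend (adjusted p up to 0.36 over the settings). The Acsl4 calls were further lost with a filter on mean signal, in both comparisons, and without the trend under the drug as well. The second probe set of Acsl5, AB012933_at, stood at 1.96 ± 0.33 without the drug and 1.39 ± 0.23 under it. For Acsl4, rc_AI236284_s_at stood at 1.59 ± 0.37 and 1.74 ± 0.26, and these values all passed. Another of Acsl4, rc_AI045002_at, stood at 1.46 ± 0.46 and 1.02 ± 0.33 and did not pass. The losses given are those of the brightest probe sets.

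Of 6 genes of fatty acid synthesis and desaturation, 2 fell in FE8 under the drug and 4 did not pass. Fasn, which makes palmitate, gave 957 for 208F without the drug and 609 and 460 with it, and 2185 for FE8 without the drug and 602 and 570 with it. By this probe set (M76767_s_at) the untreated FE8 array was the highest, and 208F also had high signals. The probe sets of Fasn disagreed on the untreated lines, FE8 minus 208F being 1.14 ± 0.35 by this one and -0.87 ± 0.37 by X13527cds_s_at, and neither passed. Fasn fell (-1.79 ± 0.30, limma adjusted p = 0.0043), and Acly, the citrate lyase that supplies acetyl-CoA, fell from 8633 to 2817 and 3827 (-1.38 ± 0.29, limma adjusted p = 0.014). Both calls were lost without either treated FE8 array, with adjusted p up to 0.09 for Fasn and 0.26 for Acly. The second probe set of Fasn stood at -0.69 ± 0.32 in FE8 and did not pass there, although it did in 208F (-1.28 ± 0.32, limma adjusted p = 0.045), nor did the other probe sets of Acly, of which L27075_g_at stood at 0.48 ± 0.39. The paralogous desaturase Scd2 gave 2949, then 1499 and 2252, in 208F and 5917, then 3069 and 3036, in FE8 and did not pass by this probe set, while another, M15114_g_at, fell in FE8 (-1.33 ± 0.34, limma adjusted p = 0.036). The other 3 probe sets of Scd2, AF036761_at, S75730_at and U67995_s_at, stood at -0.01, -0.19 and -0.95 in FE8 and did not pass. In 208F none of the 6 passed by limma, with 4 at an unadjusted p under 0.05, and none passed in either line comparison, with 3 and 2 at such a p without and with the drug.

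Of 6 other genes of fatty acid binding and uptake, 1 rose and none fell in 208F under the drug, while 1 fell and none rose in FE8. Fabp3, the carrier best known from heart muscle, gave 57 for 208F without the drug and 479 and 482 with it, and 27 for FE8 without the drug and 60 and 31 with it. The treated 208F arrays were the only high ones, whereas Fabp4 was above 64 on the FE8 arrays only. The rise in 208F was 2.17 ± 0.39 (limma adjusted p = 0.0086), and treated FE8 was lower than treated 208F (-2.33 ± 0.32, limma adjusted p = 0.00086). Dbi, the acyl-CoA binding protein, gave 3856 in FE8 without the drug and 1346 and 1581 with it (-1.36 ± 0.27, limma adjusted p = 0.011), again the highest array being untreated FE8, and this call was lost without either treated FE8 array. Vldlr, a lipoprotein receptor, was higher in FE8 without the drug by 2.26 ± 0.43 (limma adjusted p = 0.009).

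Of 5 other retinoid genes, Rbp2, a cellular retinol-binding protein of the intestine, rose in FE8, 4 did not pass there, and none of 5 passed in 208F, where none had an unadjusted p under 0.05 by limma. Rbp2 gave 17 for 208F without the drug and 57 and 84 with it, and 18 for FE8 without the drug and 293 and 282 with it (2.10 ± 0.39 in FE8, limma adjusted p = 0.0071, lost without either treated FE8 array), and was higher in FE8 than in 208F under the drug by 1.39 ± 0.32 (limma adjusted p = 0.022), a call lost without 208F replicate 1 and without either treated FE8 array (adjusted p up to 0.15). Crabp1, the paralogue of Crabp2, did not follow it. Its signals were 1261 for 208F without the drug and 1396 and 1211 with it, and 310 for FE8 without the drug and 419 and 406 with it. Crabp1 separated the arrays by line and was lower in FE8 without the drug (-1.82 ± 0.34, limma adjusted p = 0.0087) and under it (-1.52 ± 0.24, limma adjusted p = 0.0022). Without either treated FE8 array these calls were lost, at adjusted p up to 0.063 and 0.082.

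Of 17 measured genes in the list of PPAR receptors and fatty acid oxidation, 3 rose in 208F and 1 rose in FE8 under the drug. Ppard was the only PPAR receptor measured, and it did not pass (-0.23 ± 0.32 in 208F and 0.11 ± 0.32 in FE8). Ppara and Pparg were not measured. The mitochondrial carrier Ucp2 rose in both lines, from 259 to 1013 and 929 in 208F (1.68 ± 0.30, limma adjusted p = 0.0075) and from 379 to 1024 and 1172 in FE8 (1.39 ± 0.30, limma adjusted p = 0.015). The acyl-CoA thioesterase Acot2 rose in 208F from 30 to 250 and 382 (1.99 ± 0.40, limma adjusted p = 0.015), and the dehydrogenase Acadl rose there by 1.11 ± 0.28 (limma adjusted p = 0.048). The Ucp2 and Acot2 calls were lost without either treated FE8 array, and the Acadl call was lost in 7 of 11 settings, among them quantile normalization and median centring, with adjusted p up to 0.19. A second probe set of Acot2 stood at 0.65 ± 0.41 in 208F. The carnitine palmitoyltransferase Cpt1b did not pass in 208F by its brightest probe set (0.90 ± 0.35) but rose there by its other, D43623_g_at (2.05 ± 0.38, limma adjusted p = 0.0091). None of the 17 passed between lines by limma, with 4 and 2 at an unadjusted p under 0.05 without and with the drug.

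**Figure D4:**
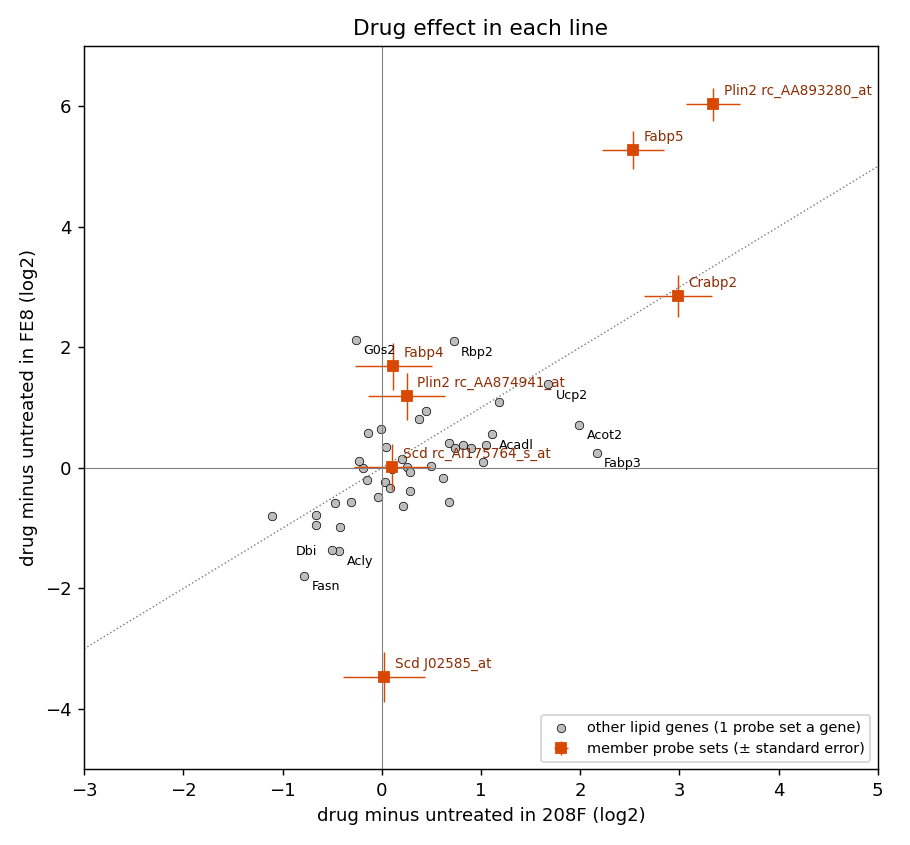
Log2 drug effect in 208F (x axis) against that in FE8 (y axis), with squares for the 7 probe sets of the 5 lipid genes (bars of ± 1 standard error), circles for 42 other genes of lipid and retinoid handling, and a dotted line where the effects are equal. Plin2 (3.34, 6.03) and Fabp5 (2.53, 5.28) lie above the line, Crabp2 (2.98, 2.85) lies on it, and Scd J02585_at (0.03, -3.47) lies below all others. The named circles passed the threshold in at least 1 line.

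The patterns of the members over the 6 arrays can be placed beside those of other genes. Among 419 probe sets of exactly 1 gene with a log2 range of at least 2, the brighter probe set of Plin2 was most like Plau, a plasminogen activator (Pearson's r = 0.991 over 6 arrays), then Fabp5 (0.988) and Cyp2c7 (0.983). Fabp5 was most like Plin2, then Ndufa4l2 (0.976) and Junb (0.971). For Crabp2 the nearest were Chrna7 (0.998), Krt8 (0.994) and Spint2 (0.991), and the latter 2 are epithelial markers. For Fabp4 they were Cdh17 (0.991), Aqp1 (0.984) and Enpp3 (0.983). For Scd (J02585_at) they were Dhcr7 (0.941) and Fdft1 (0.923), both enzymes of cholesterol synthesis, and Prdx3 (0.930). Among the members themselves r was 0.93 for Crabp2 with both Plin2 and Fabp5, 0.54 for Plin2 with Fabp4, 0.43 for Fabp4 with Fabp5, and -0.63 for Scd with Fabp5. The 6 arrays form 4 groups, and all treated arrays share a treatment and were run on other days than the untreated ones. Many probe sets therefore reach a high r, and these values are given as a description only.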

How the data were processed

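RNA of 208F and FE8 fibroblasts was hybridized to an Affymetrix rat genome array, 6 arrays in all, a number that limits the precision of every value. The deposited values are signal intensities per probe set on a linear scale, made with MAS5 per the submitters' processing notes, rounded to whole numbers and taken as already scaled, since array means lay between 1258 and 1389.5. Other deposited files are records of run settings, which were used for lots and days (per the file headers). Of 4847 probe sets 29 were controls and 4818 were tested. Version, settings and the filter behind this subset are not given in the sources used here, nor are detection calls. Probe sets were named from the platform annotation, with symbols updated by gene identifier for 3942 of the 3956 that listed 1 gene, while 207 listed several and 655 none.

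Differences were computed on log2(signal + 64), 64 being the 10th percentile of the signals tested. limma 3.58.1 in R 4.3.3 (lmFit, eBayes with an intensity trend) fitted 4 group means to all 6 arrays, with 2 residual and 9.02 prior degrees of freedom, so each untreated array took its error from the spread of the treated duplicates, which may be technical. Tests were 2-sided, Benjamini-Hochberg adjusted over 4818 probe sets, and the code was tested on simulated data. Genes of the 5 lists were named up to 3 per list and comparison in order of size, and similar genes were the 3 with the highest r. Members and lists were chosen with earlier results of these data known. Alternatives were other added values, quantile or median scaling, a signal filter, no trend, a replicate block and leaving out each treated array.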

Additional observations from a re-analysis of the deposited data

Results flagged for a closer look

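The effect of the drug on Plin2 (rc_AA893280_at) differed between the lines, being larger in FE8 than in 208F by 2.69 ± 0.39 on the log2 scale (6.03 against 3.34), past the limma threshold for the difference itself. All 4 treated arrays lay above the untreated array of their line. It passed in 5 of 11 other settings and not in the other 6, with values from 2.18 to 3.12, and the gene was chosen with this result known.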

How the results depend on the processing

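Leaving out 1 treated array moved the counts of probe sets past the threshold most. The count was 109 to 541 for FE8 against 208F without the drug (285 as reported), 96 to 530 under the drug (341), 75 to 663 for the drug effect in 208F (250), 76 to 783 in FE8 (393) and 0 to 206 for the difference between the drug effects (3), always with the lower counts without an FE8 array. In those fits 1 residual degree of freedom remains, and the spread comes from the duplicates of 1 line. Without an FE8 array these are the 208F duplicates, which were run on different lots and days. Without a 208F array they are the FE8 duplicates, which shared a lot and day. Quantile normalization gave 165 for the drug effect in 208F and 258 in FE8. The difference between the drug effects gave 10 and 6 probe sets with 16 and with 4 times 64 added, 9 with median centring, and 0 by limma with quantile normalization, with a mean signal of at least 200, without a trend and with the replicate block (316, 312, 332 and 499 at an unadjusted p under 0.05), and also 0 without FE8 replicate 1 or 2 (244 and 283). Same-numbered treated arrays deviated together with r = 0.32 over probe sets, but with 2 numbers and no sample label of a shared batch they were not taken as pairs. By lot and day, the treated arrays numbered 1 differed from each other. The treated arrays numbered 2 shared a lot and day, as did FE8 replicate 1, so the numbers do not mark run batches. With the replicate block the counts were 285, 325, 216 and 429 for the line comparisons without and with the drug and the drug effects in 208F and FE8, and Plin2 in the difference between the drug effects was the only call of a member lost.

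No called difference of a member changed sign in any setting. Sizes of members moved by more than the residual spread in 28 of 35 values with 16 added and in 23 with 4 times 64. They did so in 10 with quantile normalization and in 7 with median centring. The fits without a trend and with the block leave every difference as it was. Leaving out 1 treated array cannot move a difference past this spread, which is computed from the same duplicates. These settings therefore do not test the sizes. The median drug effect over all probe sets was 0.11 in 208F and 0.08 in FE8 as reported, and -0.03 and -0.04 after median centring. With the filter on mean signal, the dimmer probe sets of Plin2 and Scd were not tested.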
